A study of Mus musculus with 42 samples.

Results

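*Tug1* knockout prostate was compared with wild-type prostate across the whole transcriptome, using the rows of the deposited comparison table that hold both genotypes of this tissue. These rows come from 5 of the 42 samples of the series, 3 wild-type and 2 knockout, and list 26653 genes. All 5 samples were polyA RNA from prostates of male mice of the *Tug1*_tm1.1Vlcg strain, which are kept on a C57BL/6J background that the labels give as N3 and free of the Neo cassette. Wild-type mice carried 2 normal *Tug1* alleles. *Tug1*-/- mice carried on both alleles a *lacZ* reporter in place of the *Tug1* gene body, with the *Tug1* promoter and first exon left in the genome, so the controls share the strain but not the reporter. Their age, the prostate lobes taken and whether the animals were littermates are not given in the sources used here. The same table holds both genotypes for liver, heart, spleen, testes, eyes and embryonic fibroblasts in culture (MEFs), which are set beside the prostate values at the end.

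*Tug1* is a long noncoding RNA that is made in most tissues and kept between mouse and human. Its promoter is shared with *Morc2a*, which is transcribed in the opposite direction and encodes an ATPase that takes part in gene silencing by the HUSH complex. The mouse prostate is a gland of secretory luminal cells over a thin layer of basal cells, wrapped in smooth muscle and lying against the seminal vesicles, the bladder and fat. Its luminal cells depend on the androgen receptor and release proteins of the seminal fluid, among them probasin, the product of *Pbsn*.

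Expression is given as FPKM, fragments per kilobase of transcript scaled to the number of mapped fragments, a level that can be compared between genes of different length. The table has 1 FPKM value per gene and genotype, into which the authors had merged the samples, so no spread between mice, no test and no replicate check can be given for any difference below. Library depth is likewise unknown from these values. Each comparison is a log2 ratio, log2((knockout + 0.1)/(wild type + 0.1)), which understates the difference of genes near 0, and each number of times given below is this ratio unlogged, with 0.1 added to both values. A gene was kept where the higher of its 2 values was at least 1 FPKM, and a difference of more than 2 times, a log2 ratio beyond 1 or -1, is counted. Of the 26653 genes, 12359 were kept, 5809 were listed at 0 in both genotypes, and 2 had no estimate.

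The tissue label was checked against its markers. *Pbsn* (ENSMUSG00000000003.9, chrX:77837901-77853623, minus strand, coordinates here and below from GENCODE vM21 on GRCm38) had the highest level of all genes in wild-type prostate, at 25020 FPKM, and 21141 FPKM in the knockout. In testes, eyes, heart, liver and MEFs *Pbsn* was listed at 0 in both genotypes, and in spleen at 0.00732 and 0.0102 FPKM. The other marker, *Tgm4*, which encodes the transglutaminase of the copulatory plug, could not be used, since it is 1 of the 2 genes without an estimate and is listed at 0 in both genotypes. The homeobox gene *Hoxb13*, which marks prostate epithelium, stood at 132 FPKM in the wild type and at 119 FPKM in the knockout.

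Start regions of genes that the comparison turns on are shown first. Each is the RefSeq window from 250 bases before to 50 bases after an annotated start on GRCm38.p6, read in the direction of the gene. The first 3 windows come from the *Tug1* locus, and capitals mark CG dinucleotides. The *Tug1* window (chr11:3648765-3649064, minus strand) and the *Morc2a* window (chr11:3649187-3649486, plus strand) lie 122 bases apart and head away from each other. They hold 37 and 46 CG dinucleotides, against a median of 7 over 32851 RefSeq windows of this length. A second RefSeq window of *Morc2a* (chr11:3658422-3658721, plus strand), not shown, holds 0. The window shown for *8430429K09Rik* (chr11:3452187-3452486, plus strand), whose partner *Rnf185* starts beside it on the minus strand, holds 30. Other windows of this gene, which overlap the window shown, hold 27 and 26.
Tug1: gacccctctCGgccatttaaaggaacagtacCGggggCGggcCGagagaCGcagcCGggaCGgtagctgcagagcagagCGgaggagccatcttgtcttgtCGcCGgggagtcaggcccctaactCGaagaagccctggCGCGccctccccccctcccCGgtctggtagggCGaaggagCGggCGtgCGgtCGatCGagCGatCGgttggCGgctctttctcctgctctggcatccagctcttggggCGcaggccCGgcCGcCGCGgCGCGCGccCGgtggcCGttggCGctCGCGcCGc
Morc2a: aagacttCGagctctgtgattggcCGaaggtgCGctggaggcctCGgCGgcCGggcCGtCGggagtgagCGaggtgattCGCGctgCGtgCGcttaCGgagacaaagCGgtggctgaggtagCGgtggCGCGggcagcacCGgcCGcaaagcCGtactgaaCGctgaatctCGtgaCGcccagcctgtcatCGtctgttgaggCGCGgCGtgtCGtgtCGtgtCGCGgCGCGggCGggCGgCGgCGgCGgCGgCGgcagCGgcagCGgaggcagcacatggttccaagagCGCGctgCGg
8430429K09Rik: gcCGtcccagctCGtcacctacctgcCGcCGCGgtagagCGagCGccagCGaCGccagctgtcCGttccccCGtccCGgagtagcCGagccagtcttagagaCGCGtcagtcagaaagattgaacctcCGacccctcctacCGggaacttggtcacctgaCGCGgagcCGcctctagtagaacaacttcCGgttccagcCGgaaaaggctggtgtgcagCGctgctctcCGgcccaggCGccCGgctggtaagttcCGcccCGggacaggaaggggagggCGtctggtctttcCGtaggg

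The other 2 windows belong to the secretory genes *Pbsn*, the most abundant transcript of the gland, and *Svs5*, the secretory gene with the largest gain in FPKM in the knockout. Here capitals mark the letters TATAAA, searched on both strands as TATAAA and TTTATA. The letters were found at -59 from the start of *Pbsn* (chrX:77853451-77853750, minus strand) and at -28 from that of *Svs5* (chr2:164332515-164332814, plus strand), where they lie on the strand of the gene. They occur in 13.6% of the 32851 windows. By gene, 6 of the 8 seminal vesicle genes with a window hold them, as do 3 of 7 prostate secretory genes and 1 of 16 adipocyte genes, beside 15.7% of the 27025 genes with a window.
Pbsn: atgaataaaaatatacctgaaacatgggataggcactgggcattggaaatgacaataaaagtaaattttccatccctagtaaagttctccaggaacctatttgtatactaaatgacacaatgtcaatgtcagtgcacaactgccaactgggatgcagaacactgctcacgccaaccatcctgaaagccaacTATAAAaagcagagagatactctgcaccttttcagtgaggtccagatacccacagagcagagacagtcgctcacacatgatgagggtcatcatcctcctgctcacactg
Svs5: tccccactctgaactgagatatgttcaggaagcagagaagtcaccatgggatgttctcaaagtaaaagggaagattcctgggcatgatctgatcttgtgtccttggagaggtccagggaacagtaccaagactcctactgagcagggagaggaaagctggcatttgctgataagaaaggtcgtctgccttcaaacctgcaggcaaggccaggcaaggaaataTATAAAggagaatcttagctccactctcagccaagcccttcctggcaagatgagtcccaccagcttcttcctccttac

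*Tug1* itself was nearly absent from the knockout. *Tug1* (ENSMUSG00000056579.11, chr11:3639785-3649673, minus strand) stood at 19.2 FPKM with both normal alleles and at 0.101 FPKM without them, which is 0.528% of the wild-type value and a log2 ratio of -6.58. The *lacZ* reporter was at 0.734 FPKM in the knockout, against 0.00258 FPKM in the wild type. Both values go with the labels of the genotypes. The reporter stood far below the *Tug1* level it replaces, and lower than in knockout testes, at 54.3 FPKM, heart, at 8.18 FPKM, MEFs, at 6.77 FPKM, and eyes, at 5.98 FPKM, while spleen, at 0.434 FPKM, and liver, at 0.355 FPKM, had less.

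*Morc2a* (ENSMUSG00000034543.8, chr11:3649191-3690477, plus strand) was lower in the knockout, at 1.06 FPKM against 8.80 FPKM, which is 12.1% of the wild-type value and a log2 ratio of -2.94. Its annotated gene overlaps that of *Tug1* by 483 bp, and the library kit does not keep the strand, so reads from the overlap cannot be told apart. Values for the same gene in the other tissues were log2 ratios of -3.05 in liver, -1.42 in spleen and between -0.57 and -0.31 in eyes, heart, MEFs and testes. Liver, spleen and prostate, where *Morc2a* was lower by more than 2 times, are also the 3 knockout tissues with *lacZ* under 1 FPKM. Differences between tissues were not tested. *Osbp2*, a neighbor described next, went in opposite directions between tissues, with log2 ratios of 1.32 in prostate, 0.27 in eyes, -0.24 in testes and -2.41 in heart.

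Several genes downstream of *Tug1* were higher in the knockout prostate. *Rnf185*, which encodes an E3 ubiquitin ligase of the endoplasmic reticulum and mitochondria, had 29.1 FPKM in the wild type and 52.3 FPKM in the knockout, 1.79 times as much. *Selm*, which encodes selenoprotein M, had 25.1 and 48.1 FPKM, and *Smtn*, which encodes smoothelin of the contractile apparatus, had 28.2 and 48.8 FPKM. These 3 genes stayed under 2 times. The noncoding *8430429K09Rik*, which runs away from *Rnf185* on the opposite strand, went past it, with 1.79 FPKM in the wild type and 4.39 FPKM in the knockout. So did *Gm11946*, at 1.32 and 3.35 FPKM, and *Gm11947*, at 0.185 and 1.002 FPKM, whose annotated genes overlap *Smtn* on the opposite strand, so reads of the 3 genes cannot be told apart in their overlap. *Inpp5j* and *Pla2g3*, which start in the same downstream stretch, did not reach 1 FPKM in either genotype. They had 0.505 and 0.622 FPKM and 0.0806 and 0.0601 FPKM, the wild type first. Upstream, *Osbp2*, which encodes an oxysterol-binding protein, had 2.80 and 7.15 FPKM. Farther out on that side, *Sec14l2* had 15.9 and 13.3 FPKM and *Mtfp1* 4.54 and 4.25 FPKM.

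The higher genes lay in a narrow stretch. Starts of *Smtn*, *Selm*, *Rnf185* and *8430429K09Rik* lie 109061, 134989, 197310 and 197308 bp from that of *Tug1*, and that of *Osbp2* lies 214230 bp away on the other side. The next kept genes outward were *Limk2* at 240484 bp downstream, with a log2 ratio of -0.07, and *Slc35e4* at 264991 bp upstream, with -0.02. Within 1 Mb, 5 of 30 kept genes besides *Tug1* differed by more than 2 times, 4 higher and 1 lower. On the same chromosome this was so for 2 of 43 kept genes at 1 to 10 Mb and for 6 of 985 farther away, and for 1.29% of the 11204 kept genes on other chromosomes. *Gm11947* was kept through its knockout value alone, and it overlaps *Gm11946*. Among genes with at least 1 FPKM in the wild type, 4 of 29 within 1 Mb were past 2 times, beside 0.785% of 10960 on other chromosomes. Both genes at 1 to 10 Mb, *Nefh*, a neurofilament gene with 1.32 FPKM in the wild type and 8.60 FPKM in the knockout, and *Camk2b*, a calmodulin kinase gene with 19.0 and 7.83 FPKM, were named after their values were seen for their place on the chromosome.

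**Figure D1:**
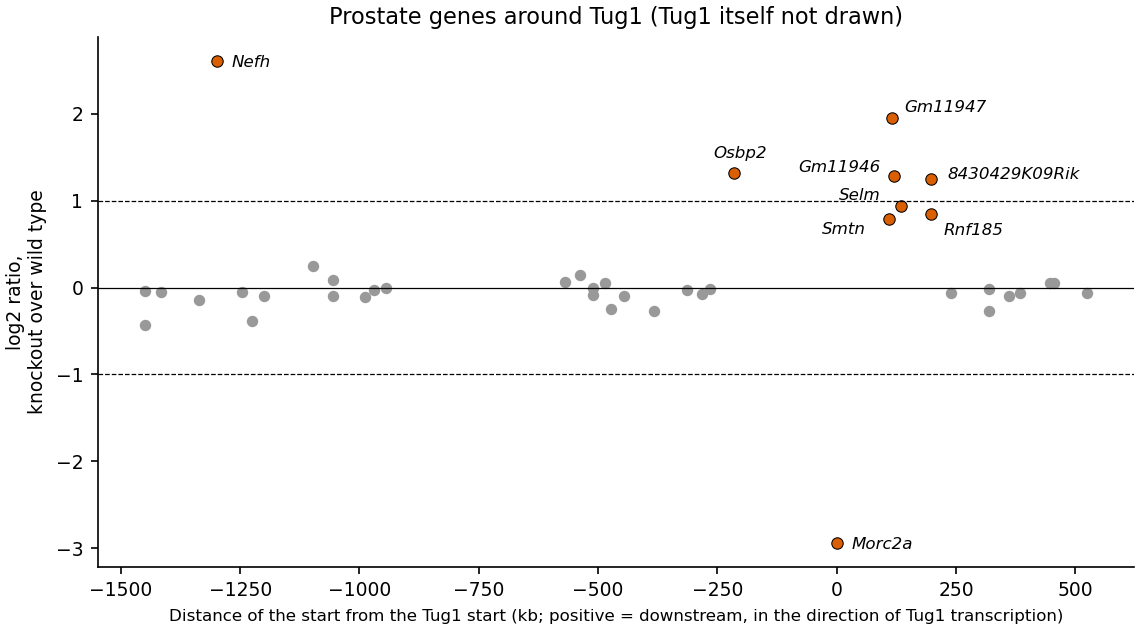
Log2 ratio of knockout over wild type (y axis) against the distance in kb of each gene's start from that of *Tug1* (x axis, positive in the direction of *Tug1* transcription), 1 point for each kept gene within 1.5 Mb in prostate, with dashed lines at a difference of 2 times. Orange points are beyond 0.75 in either direction: *Morc2a* sits at -2.94 beside *Tug1*, a group from *Smtn* to *Rnf185* sits above 0.75 on one side and *Osbp2* and the distant *Nefh* on the other, and the grey genes on either side lie between -0.43 and 0.25.

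Across the transcriptome most genes had nearly the same FPKM in both genotypes. The median log2 ratio of the 12359 kept genes was -0.04 and the median size of the ratio was 0.11. From the 5th to the 95th percentile the ratios ran from -0.31 to 0.39. 132 genes were higher in the knockout by more than 2 times (1.07% of those kept) and 31 were lower (0.251%), so 81.0% of the 163 genes (1.32%) were higher. The share past 2 times depended on level. Among the 3907 genes whose higher value was 1 to 5 FPKM, 70 (1.79%) were higher and 15 (0.384%) lower, among the 8452 genes at 5 FPKM or more 62 (0.734%) and 16 (0.189%), and among the 1595 genes at 50 FPKM or more 12 (0.752%) and 4 (0.251%). Among the 132 higher genes 9 were listed at 0 in the wild type, and among the 31 lower genes 2 were listed at 0 in the knockout. An exact 0 can be a failed estimate. Since a gene could pass the filter through the knockout alone, the same count was made for the 12086 genes with at least 1 FPKM in the wild type, of which 67 (0.554%) were higher and 31 (0.256%) lower.

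**Figure D2:**
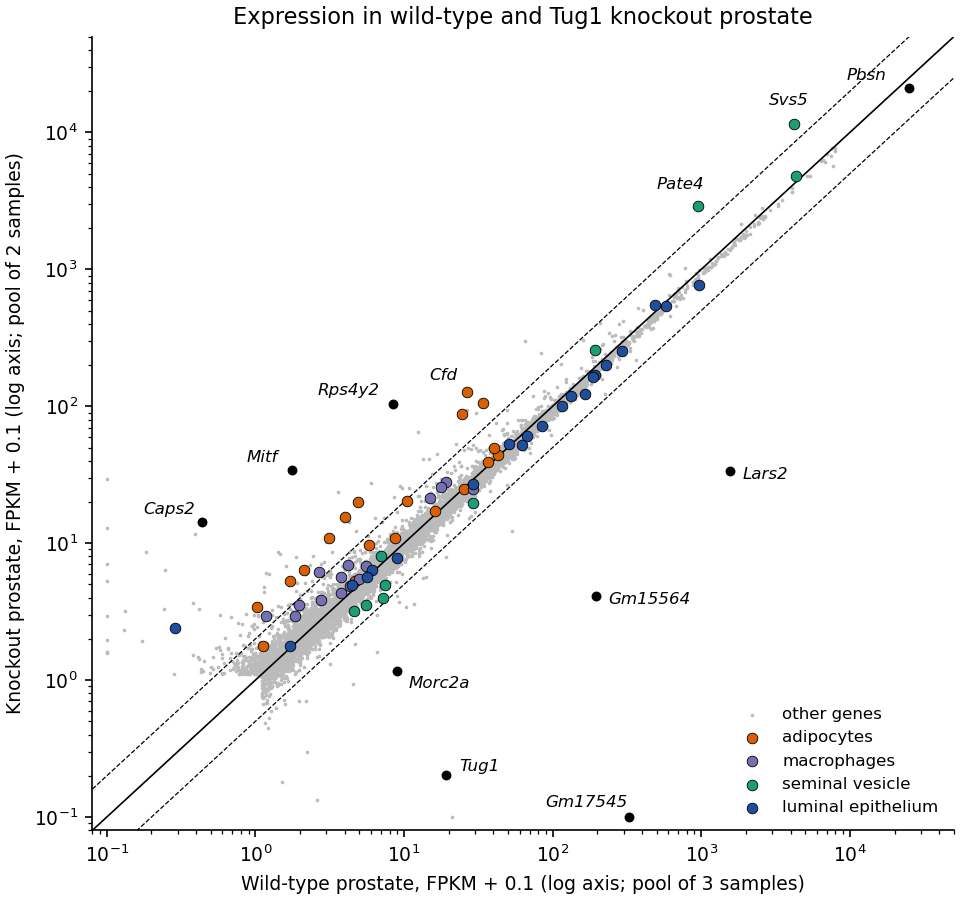
FPKM + 0.1 of each of the 12359 kept genes in wild-type (x axis, merged from 3 samples) and knockout prostate (y axis, merged from 2 samples), both on log axes, with the line of equal values and dashed lines at 2 times. Adipocyte genes (orange) and macrophage genes (purple) lie on or above the line of equal values except *Acsl1* and *Mertk*, which are just below it, *Svs5* and *Pate4* stand out among the seminal vesicle genes (green), luminal epithelial genes (blue) follow the line except *Psca*, and *Tug1*, *Lars2*, *Gm15564* and *Gm17545* lie far below it.

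The genes with the largest ratios, among those with at least 5 FPKM in a genotype, were single genes of unlike function. *Caps2*, which encodes a calcium-binding protein, had 0.335 FPKM in the wild type and 14.2 FPKM in the knockout, and *Afm*, which encodes the vitamin E carrier afamin, had 0.294 and 11.6 FPKM. *Mitf*, the transcription factor of melanocytes and osteoclasts, had 1.68 and 34.0 FPKM, 19.2 times as much. *Rps4y2*, which encodes a ribosomal protein of the small subunit, had 8.32 and 104.7 FPKM, 12.4 times as much. It is a close relative of *Rps4x*, at 1761 and 1663 FPKM, and reads can be shared between such genes. *Cyp2e1*, a cytochrome P450 of liver and fat, had 3.51 and 23.6 FPKM, and *Nefh* is given above. The immunoglobulin gene *Igkv4-71* had 0.148 and 6.28 FPKM and the noncoding *4930453H23Rik* 0.084 and 8.51 FPKM. *Gm17374*, *Gm11705*, *Gm10964* and the kallikrein *Klk1b22* were listed at 0 in the wild type and at 29.2, 12.9, 5.16 and 6.99 FPKM in the knockout, and no ratio is given for them. The other 13 members of the kallikrein 1 family on the list did not reach 1 FPKM in either genotype.

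These genes did not behave alike in the other tissues. *Rps4y2* was also higher by more than 2 times in spleen, eyes, heart, liver and MEFs, with log2 ratios from 1.13 to 3.67, and stood at 83.0 and 87.0 FPKM in testes. *Mitf* had a log2 ratio of -1.64 in eyes, -0.47 in liver, -0.17 in spleen and 0.14 in heart. *Caps2* had -0.34 in testes and 0.48 in heart, and was under 1 FPKM in both genotypes of the remaining tissues. *Afm* had -1.96 in testes, and was abundant in liver, at 277 FPKM in the wild type and 238 FPKM in the knockout.

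On the lower side, the abundant genes *Lars2* and *Gm15564* had the largest ratios after *Tug1* among genes above 0 in both genotypes. *Lars2*, which encodes the mitochondrial leucyl-tRNA synthetase, was listed at 1559 FPKM in wild-type prostate and at 33.6 FPKM in the knockout, a log2 ratio of -5.53. The antisense gene *Gm15564* had 195 and 4.01 FPKM, and *Gm26917*, a noncoding gene, 53.4 and 12.2 FPKM. For *Lars2* it is the wild-type value that stands apart, since it lay between 16.5 and 65.3 FPKM in either genotype of spleen, eyes, heart and MEFs, and between 55.8 and 71.8 FPKM in liver, while testes had 362 and 438 FPKM. *Gm15564* lay between 0.0311 and 38.9 FPKM in either genotype of the other tissues, while *Gm26917* reached 38.1 FPKM in testes and 32.3 FPKM in spleen. Whether 1 or all of the 3 wild-type prostate samples carry the high values cannot be told from a merged value. *Gm17545*, at 326 FPKM in the wild type, and *Gm21961*, at 20.9 FPKM, were listed at 0 in the knockout. *Gm17545* was also listed at 237 FPKM in wild-type and at 0 in knockout spleen, and at 0 in both genotypes of the remaining tissues. The remaining genes of the 12 with the largest ratios on this side were *Xlr3a*, with 6.47 FPKM in the wild type and 1.52 FPKM in the knockout, *Ccdc68*, with 11.6 and 3.53 FPKM, the microtubule-severing gene *Katnal1*, with 10.3 and 3.30 FPKM, *Snhg9*, a small nucleolar RNA host gene whose annotated gene overlaps *Rps2*, with 9.21 and 3.62 FPKM, and *Gm20594*, with 13.9 and 5.55 FPKM.

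Adipocyte genes were the list with the most members past 2 times. Of 23 adipocyte genes 19 were kept and 9 of those were higher in the knockout by more than 2 times, none lower, beside 1.07% higher and 0.251% lower over all kept genes. The median log2 ratio of the list was 0.94, beside -0.04 over all kept genes. Cells filled with fat express *Cfd* (ENSMUSG00000061780.5, chr10:79890853-79892655, plus strand), which encodes the complement protease adipsin. It had 26.4 FPKM in the wild type and 126.2 FPKM in the knockout, 4.76 times as much. *Cidec*, which encodes a lipid droplet protein, had 4.82 and 19.997 FPKM, and *Adipoq*, which encodes the hormone adiponectin, had 3.93 and 15.5 FPKM. *Car3*, the carbonic anhydrase of fat and muscle, had 24.6 and 87.3 FPKM, and *Fabp4*, the fatty acid carrier of adipocytes, had 33.9 and 104.8 FPKM.

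Members of the list differed unequally. *Scd1*, the desaturase of fatty acid synthesis, had 40.1 FPKM in the wild type and 49.9 FPKM in the knockout, and the 10 kept members under 2 times, which include *Acsl1*, *Pnpla2*, *Lipe* and *Fasn*, had log2 ratios between -0.03 and 0.94. The summed FPKM of the 23 genes was 293 in the wild type and 604 in the knockout. Counting only the 18 members with at least 1 FPKM in the wild type, 8 were higher by more than 2 times and the median was 0.84. *Ucp1* and *Cidea*, markers of brown fat, did not reach 1 FPKM in either genotype. In a piece of tissue, more cells of a type and more RNA per cell cannot be told apart. How much fat was dissected with each gland is not given in the sources used here, and its part in the result was not tested.

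Macrophage genes had smaller ratios. Of 19 macrophage genes 15 were kept, 2 of them were higher by more than 2 times and none lower, beside 1.07% and 0.251% of all kept genes, and 14 of 15 ratios were above 0, with a median of 0.54. The scavenger receptor gene *Cd163* had 1.08 FPKM in the wild type and 2.82 FPKM in the knockout, 2.47 times as much, and the mannose receptor gene *Mrc1* had 2.57 and 6.09 FPKM, 2.32 times as much. *Cd209f*, a lectin gene, had 1.86 and 3.42 FPKM and *Folr2*, a folate receptor gene of resident macrophages, 4.08 and 6.80 FPKM. The complement genes *C1qa*, *C1qb* and *C1qc*, which macrophages make, had 19.0, 17.8 and 14.8 FPKM in the wild type and 27.8, 25.8 and 21.4 FPKM in the knockout. *Mertk*, a receptor for dying cells that epithelium also makes, was the member below 0, at 29.1 and 24.9 FPKM. The summed FPKM of the list was 117 in the wild type and 154 in the knockout.

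The MHC class II, T cell, B and plasma cell, neutrophil, chemokine and interferon-stimulated lists had 2 members past 2 times, *Igj* and *Cxcl13*. Immunoglobulin genes are given at the end. The 6 kept MHC class II genes, which present antigen, had log2 ratios from 0.31 to 0.44, for example 89.1 FPKM in the wild type and 119.7 FPKM in the knockout for *Cd74* and 62.1 and 79.2 FPKM for *H2-Aa*. None of them differed by 2 times. Of the lymphocyte and granulocyte markers hardly any were measurable. In the T cell list 1 of 10 genes was kept, *Lck*, with 1.48 and 1.15 FPKM, and in the neutrophil list none of 9 was. *Igj*, which encodes the joining chain of secreted antibodies, had 1.77 FPKM in the wild type and 7.83 FPKM in the knockout and was the kept gene of the 10 on the B and plasma cell list. Among chemokine genes 11 of 25 were kept, with a median of 0.32, and *Cxcl13*, which draws B cells, was higher past 2 times, at 1.88 and 4.09 FPKM. Of 15 kept interferon-stimulated genes none was past 2 times, and the median was 0.17.

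**Figure D3:**
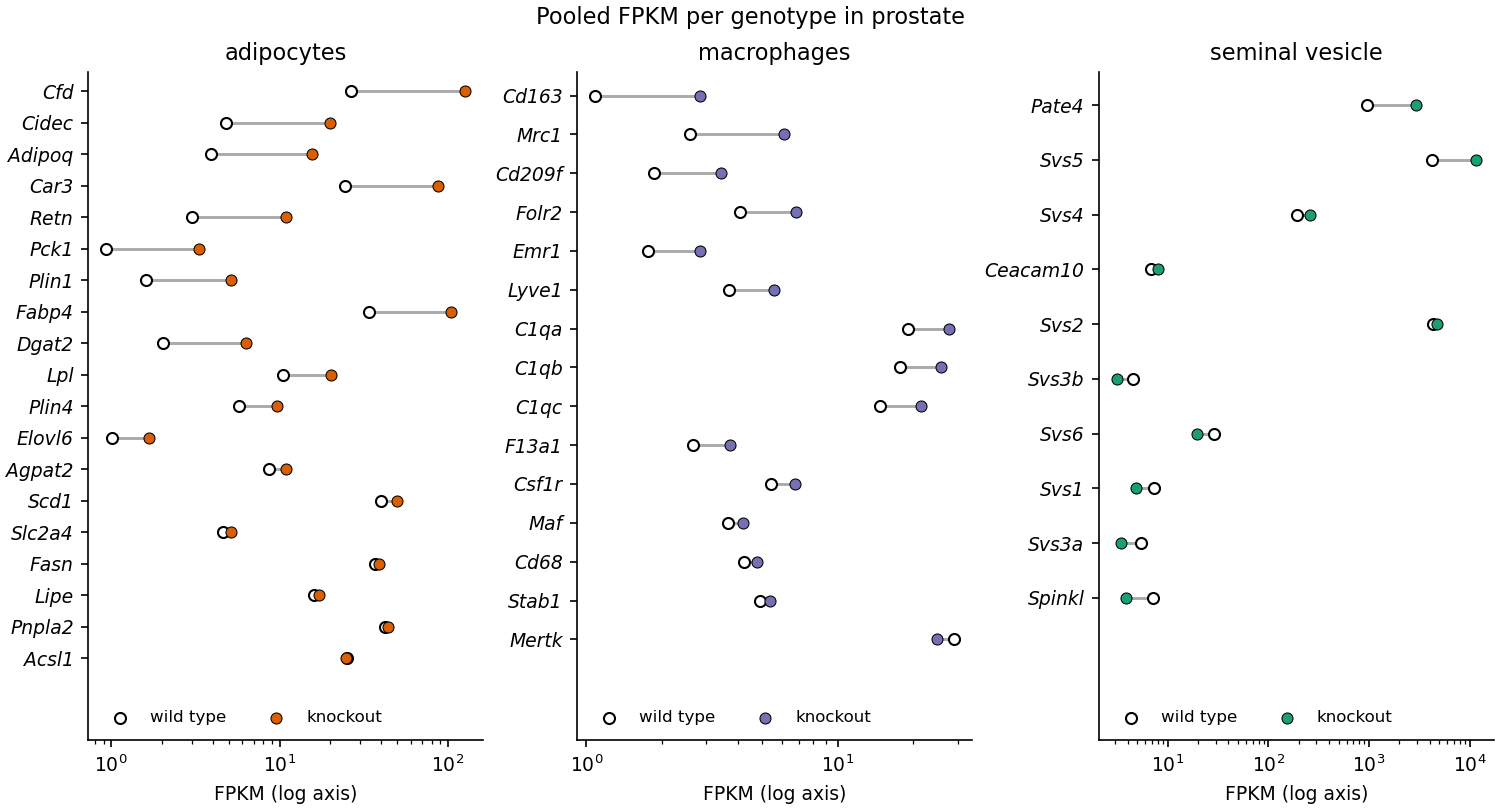
FPKM on a log axis (x) of each kept gene (y) of the adipocyte, macrophage and seminal vesicle lists in prostate, with open circles for the wild type, filled circles for the knockout and a line joining them. Knockout values lie to the right for most adipocyte and macrophage genes, by up to 4.76 times for *Cfd*, while the seminal vesicle genes split, with *Svs5* and *Pate4* higher and *Spinkl*, *Svs3a*, *Svs1*, *Svs6* and *Svs3b* lower in the knockout.

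Acute phase genes are made by liver and other tissues in response to inflammation. Of 16 such genes 7 were kept and 3 were higher by more than 2 times, none lower, beside 1.07% of all kept genes and 1.79% of those at 1 to 5 FPKM that were higher. The median of the list was 0.91. *Hp*, which encodes haptoglobin and is also made by fat, had 4.19 FPKM in the wild type and 14.2 FPKM in the knockout. *Saa3* had 0.769 and 2.96 FPKM, *Orm1* 0.331 and 1.099 FPKM, and *Lcn2*, which encodes the iron-binding lipocalin, 13.9 and 26.1 FPKM. *Saa3* and *Orm1* passed the filter through the knockout value alone, and of the 5 members with at least 1 FPKM in the wild type 1 was higher by more than 2 times. Complement genes had 12 of 17 members kept and a median of 0.44, and 1 of them, *Cfd*, was past 2 times. *C3*, the central component, had 15.2 and 21.5 FPKM, and *C4b* had 2.33 and 3.62 FPKM, while *C1s* was lower, at 88.5 and 72.9 FPKM. Of the 12 kept complement ratios 9 were above 0 and 3 below. Adipocyte, macrophage, MHC class II, acute phase and complement values come from the same pair of merged pools, and the adipocyte and complement lists share *Cfd*.

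Hemoglobin genes stayed under 2 times. The 5 kept genes of 6 on the erythroid list had log2 ratios from 0.10 to 0.87 with a median of 0.66. *Hbb-bs* had 41.3 FPKM in the wild type and 75.3 FPKM in the knockout, and *Hba-a1* 17.6 and 29.3 FPKM. The list stands for blood left in the organ, and its part in the immune gene values was not tested. *Hba-a1* and *Hba-a2* are near copies, as are *Hbb-bs* and *Hbb-bt*, and reads can be split within each pair.

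The secretory genes of the gland kept their order but not their ratios. Of 11 prostate secretory genes 8 were kept, none differed by more than 2 times, and the median was -0.01. *9530002B09Rik* had 7922 FPKM in the wild type and 7261 FPKM in the knockout, *Azgp1*, which encodes a zinc-binding secreted glycoprotein, 459 and 455 FPKM, and *Defb50*, a beta-defensin gene, 613 and 907 FPKM. *Msmb*, which encodes beta-microseminoprotein, had 4.58 and 7.90 FPKM, and the trypsin inhibitor gene *Spink3* 4.03 and 2.77 FPKM. Among the 12 genes with the highest wild-type level, besides *Pbsn* and *9530002B09Rik*, *Ren1*, which encodes renin, had 7690 and 5665 FPKM, *Prdx6*, an antioxidant enzyme gene, 6751 and 6076 FPKM, and *Mt1*, which encodes a zinc-binding metallothionein, 5432 and 4788 FPKM.

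Genes known from the seminal vesicle split in 2 directions. All 10 on the list were kept, with 2 higher by more than 2 times, beside 1.07% of all kept genes, and a median of -0.19. *Svs5* (ENSMUSG00000017004.7, chr2:164332740-164334396, plus strand), which encodes a seminal vesicle secretory protein, had 4182 FPKM in the wild type and 11507 FPKM in the knockout, 2.75 times as much and 1.98% of the summed FPKM of the knockout against 0.689% of that of the wild type. *Pate4* (ENSMUSG00000032099.2, chr9:35607093-35611941, minus strand), which encodes a small secreted protein of the Ly6 family and whose annotated gene overlaps *Pate2*, had 951 and 2925 FPKM. *Svs2*, the main protein of the plug, had 4341 and 4770 FPKM and *Svs4* 193 and 259 FPKM. *Spinkl*, at 7.09 and 3.85 FPKM, and *Svs3a*, at 5.41 and 3.44 FPKM, were lower in the knockout, as were *Svs1*, *Svs3b* and *Svs6*, by less than 2 times. The summed FPKM of the list was 9729 and 19503, and *Svs5* makes up most of that gain. The seminal vesicle lies against the prostate, and the part of its tissue in these values was not tested.

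Some secretory defense genes were higher. *Clu*, which encodes the extracellular chaperone clusterin, had 30.6 FPKM in the wild type and 89.7 FPKM in the knockout, and the protease inhibitor gene *Slpi* had 4.64 and 12.2 FPKM. These were the 2 genes past 2 times among the 6 kept of 14 mucosal genes, beside 1.07% of all kept genes that were higher. The list also held *Agr2*, a disulfide isomerase gene, at 2134 and 1816 FPKM, and the antibody transporter gene *Pigr* at 24.0 and 18.6 FPKM. Its summed FPKM was 2209 in the wild type and 1965 in the knockout. Of 12 genes of the epididymis and vas deferens 2 were kept, the beta-defensin gene *Defb42*, at 26.2 and 93.6 FPKM, and *Crisp1*, at 4.76 and 3.70 FPKM, while 8 were listed at 0 in both genotypes.

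Epithelial identity genes differed little. Of 22 luminal genes 21 were kept and 1 was higher by more than 2 times, beside 1.07% of all kept genes. This was *Psca*, which encodes prostate stem cell antigen, with 0.189 FPKM in the wild type and 2.31 FPKM in the knockout. It was kept through its knockout value alone, and none of the 20 members with at least 1 FPKM in the wild type was past 2 times. The median of the list was -0.15, and 14 of 21 ratios were below 0. The keratin gene *Krt18* had 579 and 539 FPKM, the claudin gene *Cldn4* 164 and 123 FPKM, *Cd24a* 968 and 763 FPKM, and *Foxa1*, the partner of the androgen receptor on chromatin, 62.5 and 52.2 FPKM. Of 10 basal genes 8 were kept, none past 2 times, with a median of -0.11. *Krt5* had 32.0 and 28.4 FPKM, *Trp63*, which encodes the basal regulator p63, 5.85 and 5.38 FPKM, and the galectin gene *Lgals7* 15.2 and 9.13 FPKM. None of 7 neuroendocrine genes reached 1 FPKM in either genotype. Urothelial genes, which mark bladder and urethra, had 5 of 7 kept and none past 2 times, with *Upk1b* at 127 and 117 FPKM.

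Genes that answer to the androgen receptor had 17 of 20 members kept, none past 2 times, and a median of -0.04. *Tmprss2* had 185 FPKM in the wild type and 163 FPKM in the knockout. The member with the largest ratio was *Fkbp5*, a chaperone gene induced by androgens and by glucocorticoids, at 12.4 and 22.1 FPKM. It stands also on the list of 13 glucocorticoid-induced genes, all of which were kept, with a median of 0.41 and none past 2 times. There *Tsc22d3* had 24.0 and 36.8 FPKM, the clock gene *Per1* 8.08 and 11.5 FPKM, and *Sgk1* 196 and 269 FPKM. The metallothionein genes *Mt1* and *Mt2* are also members and were lower, at 5432 and 4788 FPKM and at 4067 and 3699 FPKM. Of the 13 ratios 10 were above 0 and 3 below, and the summed FPKM of the list was 9827 in the wild type and 8923 in the knockout. The 17 kept clock genes had a median of 0.08, and none was past 2 times.

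Genes of zinc, citrate and polyamine metabolism, for which the prostate is known, were close to equal. All 17 were kept with log2 ratios between -0.18 and 0.22. *Oaz1*, which encodes the antizyme of polyamine synthesis, had 462 FPKM in the wild type and 418 FPKM in the knockout. The 10 kept posterior Hox genes lay between -0.18 and 0.32.

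Of 20 genes of protein folding in the endoplasmic reticulum, all kept, none was past 2 times, and the median was 0.09. *Herpud1*, which acts in the removal of misfolded proteins, had 209 FPKM in the wild type and 404 FPKM in the knockout, 1.93 times as much. *Ddit3*, a transcription factor gene of the stress response, had 30.2 and 49.7 FPKM, the chaperone gene *Hspa5* 772 and 1023 FPKM, and *Calr* 1103 and 993 FPKM.

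Genes of the stroma were close to equal in smooth muscle and endothelium and mostly above 0 in the matrix list. The 16 smooth muscle genes, all kept, lay between -0.16 and 0.11, with *Acta2* at 790 FPKM in the wild type and 795 FPKM in the knockout and *Tagln* at 918 and 936 FPKM. The 11 kept endothelial genes lay between -0.21 and 0.40 with a median of -0.04. The 22 fibroblast and matrix genes, all kept, had a median of 0.18 and 19 of 22 ratios above 0, with *Lum*, a proteoglycan gene, at 4.98 and 8.82 FPKM and *Dcn* at 155 and 191 FPKM, and none past 2 times. Skeletal muscle and nerve genes had 5 of 23 and 5 of 12 kept, none past 2 times.

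Cell cycle and early response genes had medians below that of all kept genes. Of 24 cell cycle genes 20 were kept, 14 of 20 ratios were below 0 and the median was -0.17, with none past 2 times. *Birc5* had 2.40 FPKM in the wild type and 1.59 FPKM in the knockout, and *Foxm1* 1.02 and 0.649 FPKM. Of 21 immediate early genes 18 were kept, 14 of 18 ratios were below 0 and the median was -0.11. *Jun* had 19.5 and 11.4 FPKM and *Egr1* 3.92 and 2.64 FPKM. *Ctgf*, which encodes a matrix growth factor, was the gene past 2 times, at 7.27 FPKM in the wild type and 15.1 FPKM in the knockout.

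**Figure D4:**
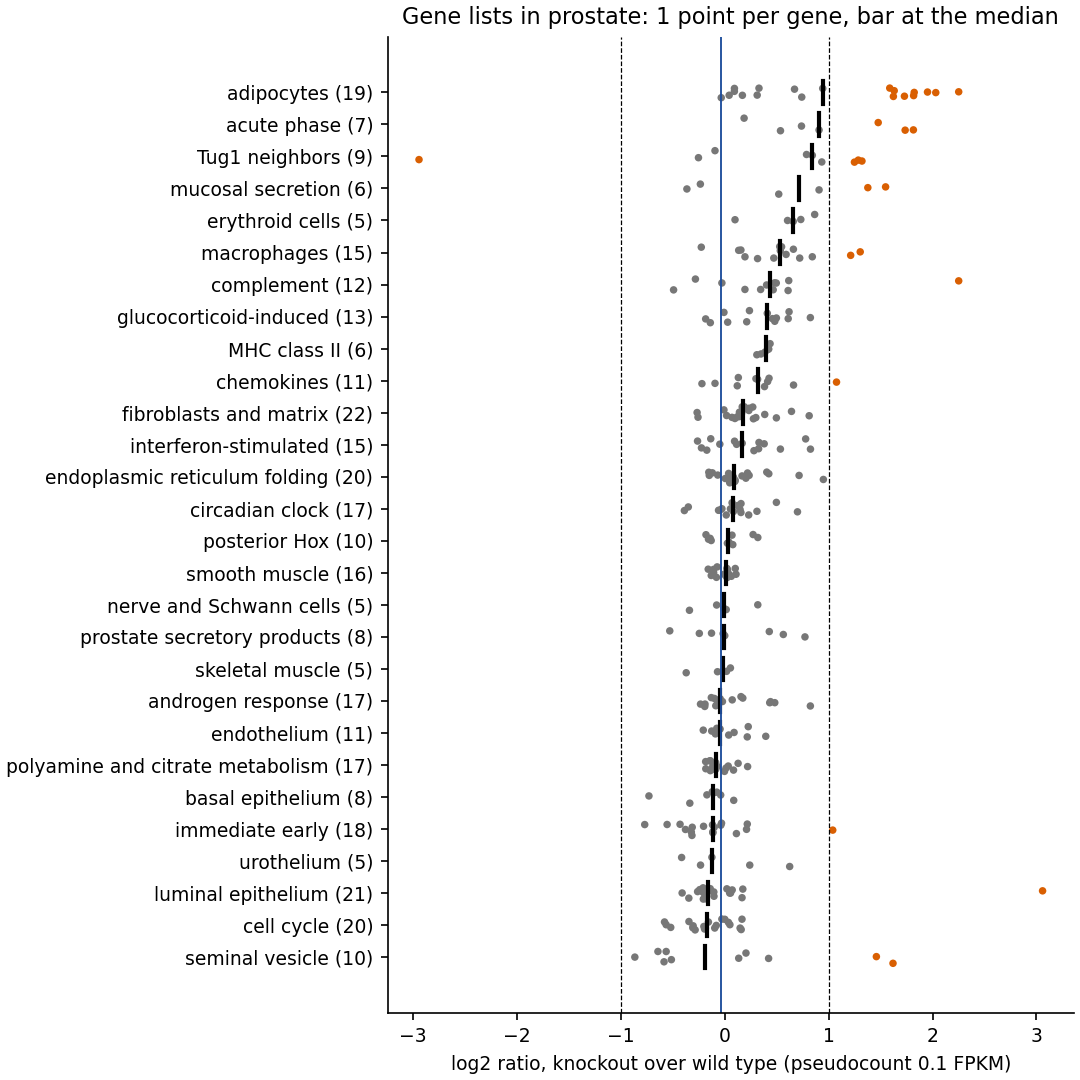
Log2 ratio of knockout over wild type (x axis) of each kept gene in the lists with at least 5 kept members (y axis, number kept in brackets), with a black bar at the median of the list, a blue line at the median of all 12359 kept genes and dashed lines at 2 times, beyond which points are orange. Adipocyte and acute phase genes have the medians farthest to the right, at 0.94 and 0.91, while smooth muscle and prostate secretory genes center near 0.

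Genes of other organs were mostly near the floor. Of 16 pancreatic enzyme genes 15 were found in the table and 2 kept, *Pnliprp1*, a lipase-related gene, at 407 FPKM in the wild type and 505 FPKM in the knockout, and *Cela1*, at 1.42 and 1.45 FPKM. Of 10 spermatid genes 1 was kept, *Odf2*, at 19.2 and 16.5 FPKM. Of 13 squamous epithelial genes 2 were kept, *Krt4* and *Sprr1a*, and of 8 hepatocyte genes *Apoa2*, at 3.91 and 4.81 FPKM, and *Cyp2e1*.

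The same lists were then read in the other tissues, each with its own merged pair of values. Adipocyte genes had a median log2 ratio of 1.07 in eyes, where 12 of 22 kept genes were higher by more than 2 times, and of -0.50 in heart, where 6 of 22 were lower and none higher. In testes, spleen, liver and MEFs the median lay between -0.10 and 0.06. In eyes *Cfd* stood at 20.6 and 118 FPKM, and in heart at 86.5 and 48.6 FPKM, the wild type first. *Cyp2e1*, also made in fat, had log2 ratios of 2.71 in prostate, 2.24 in eyes and -0.47 in heart.

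Macrophage genes had medians between 0.30 and 0.46 in eyes, heart, liver and testes, 0.02 in spleen and -0.44 in MEFs, beside 0.54 in prostate. *Cd163* had log2 ratios of 1.30 in prostate, 1.09 in eyes, 0.72 in heart, 0.69 in spleen and 0.49 in liver, and stayed under 1 FPKM in both genotypes of testes and MEFs. *Mrc1* lay between -0.71 and 0.48 outside prostate. Among the 7 tissues, the count of genes higher by more than 2 times ran from 30 (0.233%) in heart to 234 (1.83%) in spleen, and prostate was second with 132. Higher genes made up 0.843% of those kept in liver, 0.595% in eyes, 0.384% in MEFs and 0.351% in testes. The count of lower genes ran from 25 (0.173%) in eyes to 76 (0.591%) in heart, with 0.607% in liver, 0.409% in MEFs, 0.274% in spleen and 0.273% in testes.

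Of the 132 genes higher in knockout prostate, 38 were higher by more than 2 times in at least 1 of the other 6 tissues, 6 of them in 2 or more, and 18 were lower by more than 2 times in at least 1. Of all 12359 genes kept in prostate, 1.82% were higher by more than 2 times in at least 1 of the other tissues and 1.003% were lower. For 2 or more of the other tissues these shares were 0.202% and 0.0971%. Of the 132 higher genes, 15 were not kept in any other tissue. Of the 31 lower genes 8 were lower by more than 2 times elsewhere, 3 of them in 2 or more tissues: *Tug1* in all 6, *Morc2a* in liver and spleen, and *Snhg9* in 3. Of the same 31 genes 4 were higher by more than 2 times in at least 1 other tissue, among them *Snhg9*. Whether tissues came from the same mice is not given in the sources used here, and no difference between tissues was tested.

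**Figure D5:**
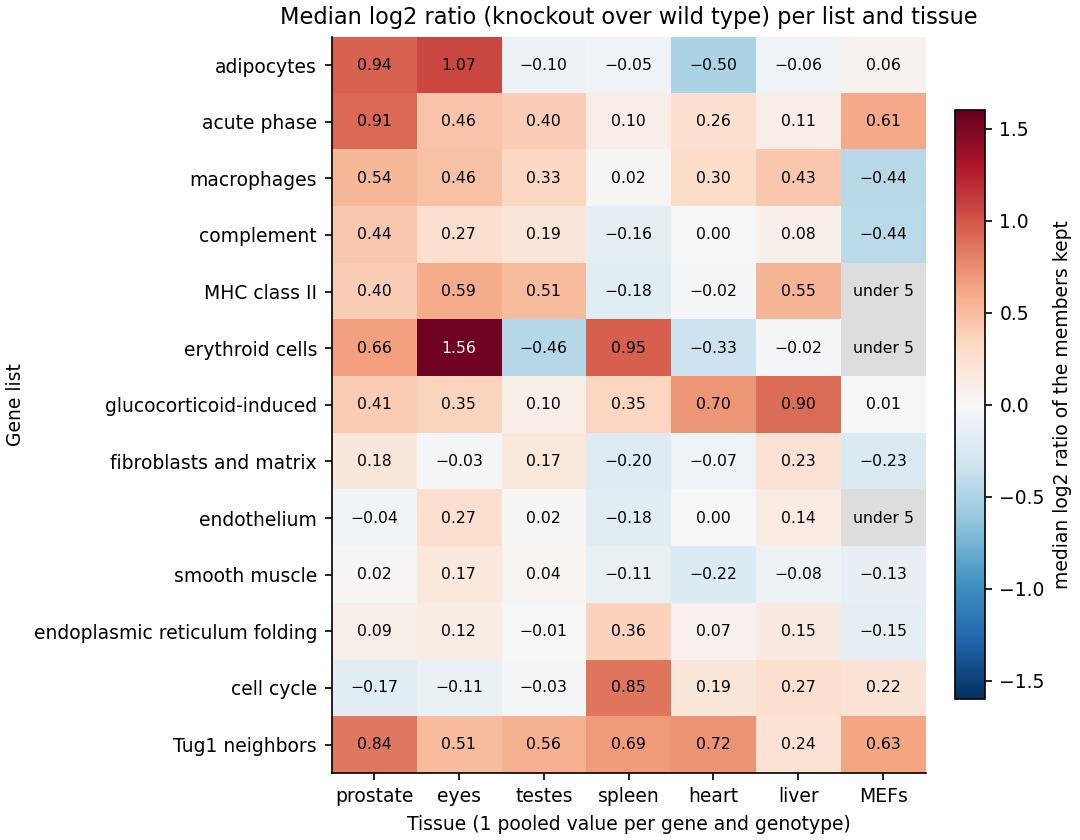
Median log2 ratio of knockout over wild type (color and printed value) of the kept members of each gene list (y axis) in 7 tissues (x axis), with grey cells where fewer than 5 members were kept. Prostate and eyes have the highest adipocyte medians, at 0.94 and 1.07, and heart has the lowest, at -0.50. The *Tug1* neighbors, listed with earlier results of these data known, have medians above 0 in each tissue. Members below 0 include *Morc2a* in each tissue and *Osbp2* in heart and testes. In all, 3 of 9 kept neighbors lie below 0 in prostate and 4 of 11 in testes. All 30 kept genes within 1 Mb of *Tug1* have a median of -0.02 in prostate.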

How the data were processed

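RNA from snap-frozen prostate had been extracted with TRIzol and sequenced from TruSeq polyA libraries as paired reads. The submitters' processing notes name CASAVA 1.8.2, TopHat2, Cuffdiff and the mm10 build. The authors deposited 1 FPKM value per gene and genotype, merged over 3 wild-type and 2 knockout samples. The table has no value per sample and no counts, so depth is unknown and no standard deviation, interval, test or paired fit was possible. Its columns of the authors' own fold changes, test statistics, p-values, q-values and calls were not used. The table also holds the values of 2 groups from 1 tissue without samples here, which were not used.

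For each gene the log2 ratio was computed with a pseudocount of 0.1 FPKM. Genes were kept where the higher value was at least 1 FPKM and the status was not LOWDATA, FAIL or HIDATA. Those differing by more than 2 times were counted. Genes with the status NOTEST, for which the authors' tool made no test, were kept, among them *Gm17545*, *Gm17374*, *Gm11705* and *Gm10964*. Python 3.11.15, numpy 2.4.6, pandas 2.3.3 and matplotlib 3.10.9 were used. The fold rule was tested on simulated data. Coordinates are from GENCODE vM21, to which 25827 of 26653 gene identifiers were matched without their version.

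The tissue, the 38 gene lists and the genes of interest were chosen with earlier results of these data known. Genes are named by rule: *Tug1*, *lacZ* and the listed neighbors, the markers, the 12 largest ratios in each direction among genes with at least 5 FPKM in a genotype, the 12 highest wild-type levels, and up to 4 members of each list by level and 4 by ratio. Genes outside it serve as examples chosen after their values were seen. Alternatives were other pseudocounts, filters, fold limits and scalings.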

Additional observations from a re-analysis of the deposited data

How the results depend on the processing

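None of the 163 genes past 2 times turned direction under other pseudocounts or scalings, an outcome fixed in advance. A pseudocount of 1 or 0.01 added to both values leaves the larger value the larger. Scaling to the same sum or centring on the median moves log2 ratios by only about 0.064 or 0.039. The counts moved with the limits chosen. Beside 132 higher and 31 lower genes, a pseudocount of 1 gave 76 and 19, a floor of 5 FPKM 62 and 16, no floor 257 and 114, a limit of 1.5 times 341 and 98 and a limit of 4 times 38 and 12. A wild-type value of at least 1 FPKM, an alternative chosen after seeing the data, gave 67 higher genes. The share of higher genes, 81.0%, was 69.3% with no floor and 68.4% with the wild-type floor. Scaling to the same sum gave 153 and 31, centring 145 and 31. Keeping only genes with the status OK, which leaves out those marked NOTEST, gave 129 and 30. Of the genes on the 38 lists 29 were past 2 times, 64 with the limit of 1.5 times and 7 with that of 4 times. A pseudocount of 1 kept 95 of the 163 genes past 2 times. Of 28 list medians scaling to the same sum turned the sign of 5 that lie near 0 (prostate secretory, androgen response, skeletal muscle, endothelium and nerve) and centring that of 3 of these. No paired analysis was possible because the merged values hold no samples, and leaving out a replicate was not run for the same reason. With merged values of unknown depth, genes near 1 FPKM are the least certain.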

Other observations

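Some gene families are given as values, chosen after their values were seen, and share members such as *Defb50* and *Defb42* with the lists above. Of 13 heat shock genes all were kept and had ratios above 0, with 3 higher in the knockout by more than 2 times, beside 1.07% of all kept genes. The inducible genes *Hspa1a* and *Hspa1b*, which lie next to each other on chr17 and are near copies, had 2.36 and 9.34 FPKM in the wild type and 8.02 and 26.2 FPKM in the knockout, and *Hsph1* had 15.3 and 31.9 FPKM. The median log2 ratio of the family was 0.41 in prostate, 0.60 in spleen, 0.52 in liver, 0.36 in heart, 0.21 in eyes, 0.05 in MEFs and 0.01 in testes. *Foxi1*, the transcription factor of cells that pump protons, had 1.03 and 4.27 FPKM, and the proton pump subunits *Atp6v1b1*, *Atp6v1g3* and *Atp6v0d2* had 0.811, 0.852 and 0.495 FPKM in the wild type and 2.09, 2.37 and 1.35 FPKM in the knockout, while *Atp6v1c2* had 426 and 378 FPKM and the carbonic anhydrase gene *Car2* 211 and 204 FPKM. The 3 low subunits were kept through their knockout values alone, and of the 3 members of this family with at least 1 FPKM in the wild type 1 was higher by more than 2 times. The 7 kept beta-defensin genes of 42 had ratios from 0.50 to 1.83, among them *Defb1*, at 298 and 422 FPKM.

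Some genes past 2 times lay beside each other. Of the 163 genes 159 had coordinates, and 39 of them fell into 15 groups with a window of 500 kb. No share over all kept genes is given beside this, so it is not read as a result. The groups named here are examples chosen after their values were seen. *Ffar2* and *Ffar3*, receptors for short fatty acids, had 0.0734 and 0.0331 FPKM in the wild type and 1.84 and 3.10 FPKM in the knockout. *Xlr3a*, *Xlr3b* and *Xlr4b* on chrX were lower, at 6.47, 3.10 and 2.13 FPKM against 1.52, 1.22 and 0.197 FPKM, and *Gprc5a* and *Hebp1* on chr6 were lower, at 4.41 and 13.3 FPKM against 0.840 and 5.44 FPKM. *Ces1d*, *Ces1e* and *Ces1f*, carboxylesterase genes, were higher, at 10.8, 0.885 and 0.403 FPKM against 25.1, 2.25 and 1.14 FPKM. *Ffar2*, *Ffar3*, *Ces1e* and *Ces1f* were kept through their knockout values alone. The group on chr2 held both directions, with *Wfdc12* lower, at 2.49 and 0.0328 FPKM, beside *Svs5* and *Slpi*. Members of such families are alike in sequence, and reads can be split between them. *Igkv4-71*, *Igkv4-62* and *Igkv4-54* were listed at 0.148, 0 and 0 FPKM in the wild type and 6.28, 1.503 and 1.88 FPKM in the knockout, with no ratio given for the latter pair, beside *Iglc2*, at 1.05 and 4.69 FPKM. These *Igkv* genes were kept through their knockout values alone. Of 14 immunoglobulin genes, chosen after their values were seen, 7 were kept. Among these, 6 were higher by more than 2 times, *Igj* included, beside 1.07% of all kept genes. Of the 3 with at least 1 FPKM in the wild type, 2 were higher by more than 2 times.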
